A study of Homo sapiens with 9 samples.

Results

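Control PANC-1 cells were described here across all genes with a deposited value, from the 3 control libraries of a series of 9. PANC-1 is an established cell line grown from a ductal carcinoma of the human pancreas. The 3 libraries are labelled control in the sample titles and siNC in the column headers, which usually stands for a non-targeting siRNA, and were taken 48 hours after transfection. The other 6 libraries are 3 siSIRT6 and 3 siKDM5C libraries, in which the same line received siRNAs against SIRT6 or KDM5C, and they are not used below. No cells without transfection were labelled, so the resting state described is that of a transfected culture of 1 line. Total RNA was taken with Trizol and made into libraries with a stranded kit that selects polyadenylated RNA. Whether the replicates came from separate cultures is not labelled, so the spread given below may be technical. No groups are compared and no p-value is given.

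The exocrine pancreas consists of acinar cells, which secrete digestive enzymes, and of duct cells, which line the channels that carry them and are marked by simple keratins and the factor SOX9. Pancreatic ductal carcinomas are commonly divided into a classical subtype, which keeps glandular endoderm genes such as GATA6 and AGR2, and a basal-like subtype with squamous keratins and fewer of those genes. PANC-1 is known as a poorly differentiated line, and it is often used as a mesenchymal-like contrast to epithelial pancreatic lines.

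Levels are the values that the authors deposited. The labels do not name their unit. It was read from the values as FPKM, the fragments per kilobase of a gene scaled to the reads counted in genes. The files list 36753 Ensembl genes, of which 4497 were at 0 in all 3 control libraries. Of the 17555 nuclear protein-coding genes listed, 11139 (63.5%) had a mean of at least 1 FPKM, which is called detected below. Counts of detected members in the gene lists below stand against that 63.5%. A mean under 0.1 FPKM is called low, and 3866 genes were low, 881 of them with 0 in every control library. The median was 2.80 FPKM, 268 genes reached 100 FPKM and 22 reached 500 FPKM. The steps between low values implied 18201413, 19072856 and 18664996 reads in genes in replicates 1, 2 and 3, so that 3 reads in a gene of 1 kilobase stood for 0.157 to 0.165 FPKM. A count of 0 allows up to 3 reads, and limits given below as FPKM are those of 3 reads in the shallowest library, counting error only.

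Replicate 3 stood apart from the other two. Over the 4140 nuclear protein-coding genes of at least 10 FPKM, replicates 1 and 2 differed by a median of 3.14%, replicates 1 and 3 by 7.35%, and replicates 2 and 3 by 7.74%. Pearson's r of log2(FPKM + 1) across all genes was 0.998 for replicates 1 and 2 and 0.997 for each pair with replicate 3. Genes are not independent replicates, so r is a description only. The mean chi-square per gene, 1 where counting error alone sets the difference, was 3.58 for replicates 1 and 2, 15.9 for 1 and 3, and 19.96 for 2 and 3, so each pair differed by more than counting error. The median coefficient of variation (CV) was 5.08%, against 2.43% from counting alone. Over replicates 1 and 2 alone it was 2.22%. A CV over fewer libraries tends to come out lower, so that value is not to be set against the 2.43%. Transcripts of low GC content were lower in replicate 3. Of 4 GC classes of 1035 genes each, replicate 3 lay at a median log2 ratio of -0.12 to the mean of the other two in the class with a median GC of 39.9%, and at 0.05 in that of 60.9%. It also differed by gene length, from a median log2 ratio of 0.05 in the shortest of 4 equal classes to -0.07 in the longest, and the parts of GC and length were not separated. Levels of the main genes below are given for each replicate, and those of other genes as means.

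**Figure D1:**
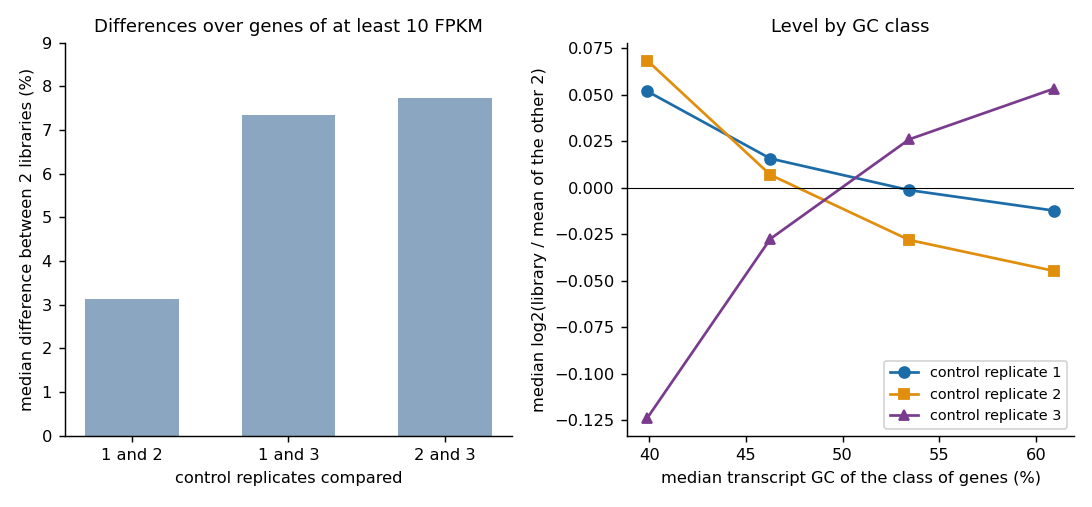
Left, bars give the median difference in percent between 2 control libraries over the 4140 genes of at least 10 FPKM, for each pair of replicates. Right, the x axis gives the median transcript GC in percent of 4 equal classes of these genes. The y axis gives the median log2 ratio of each library to the mean of the other 2. Replicate 3 runs from -0.12 to 0.05, and replicates 1 and 2 run the other way. Each library is set against the others, so the lines are not independent of one another.

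The most abundant nuclear protein-coding transcripts were those of the small ribosomal subunit protein RPS16, of the actin monomer-binding peptide thymosin beta 10 (TMSB10) and of the iron store ferritin light chain (FTL). RPS16 was at 2024, 1984 and 2099 FPKM in replicates 1, 2 and 3. TMSB10 was at 1713, 1613 and 1780.1 FPKM and FTL at 1492, 1379 and 1188 FPKM in the same order. The order of these 3 genes was the same in every library, although FTL in replicate 3 was below its level in replicates 1 and 2. The next 2 were the metallothionein MT2A, which binds zinc and copper, at 936 ± 39.9 FPKM and the translation elongation factor EEF1A1 at 930.3 ± 13.98 FPKM (SD, n = 3 here and below). GAPDH, an enzyme of glycolysis, followed at 926 ± 23.7 FPKM, so neighbours from MT2A to GAPDH did not differ beyond their spread. The chromatin protein HMGA1, an architectural factor high in embryonic and many tumour cells, was the seventh at 853, 819 and 911 FPKM, close to beta actin (ACTB) at 851, 846 and 709 FPKM.

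Secreted and surface proteins stood among the housekeeping genes at this end of the ranking. PLAU, the urokinase that activates plasminogen, was at 781, 785 and 737 FPKM, with replicate 3 below the others. ICAM1, the adhesion receptor for leukocyte integrins, was at 644, 639 and 616 FPKM, and vimentin (VIM), the intermediate filament of mesenchymal cells, at 659.8, 638 and 538 FPKM. The stearoyl-CoA desaturase SCD, which makes monounsaturated fatty acids, closed the first 20 at 559, 550.1 and 508 FPKM. Replicate 3 was the lowest of the 3 libraries for PLAU, ICAM1, VIM and SCD. The PLAU value includes exons that overlap C10orf55 on the opposite strand over 31.1% of its length, and the ICAM1 value overlaps ICAM4-AS1 over 21.99%. No source used here gives the strand of counting, so reads of such partners cannot be told apart. Of the 20, the entries ENSG00000260342, ENSG00000284969 and ENSG00000267748 are read-through genes that span ARL6IP1 and RPS15A, CD59 and C11orf91, and C19orf33 and SPINT2, and their values are not evidence of separate transcripts.

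**Figure D2:**
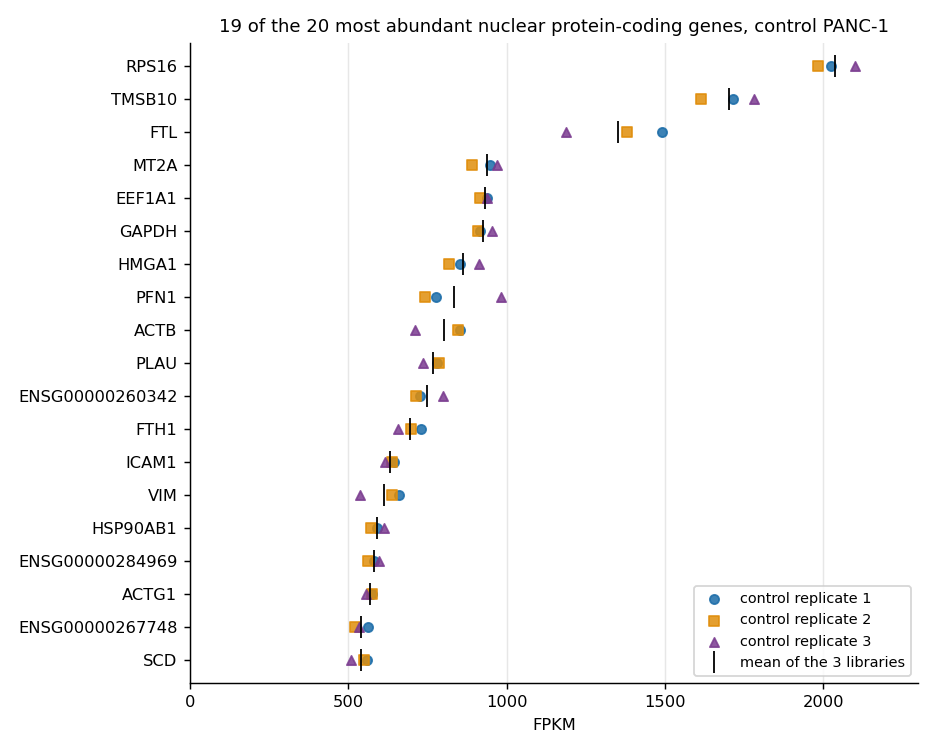
The x axis gives FPKM and each line 1 of 19 of the 20 nuclear protein-coding genes with the highest mean, with 1 point per control library and a bar at the mean. RPS16, TMSB10 and FTL lie above all others in every library, and replicate 3 (triangles) is the highest for PFN1 and the lowest for FTL, ACTB and VIM.

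FPKM divides by length, and the ranking by whole reads was another. By recovered reads the first 10 were EEF1A1, RPS16, ACTB, the keratin KRT8, VIM, the giant scaffold AHNAK, the actin crosslinker FLNA, SCD, the translation factor EIF4G2 and the annexin ANXA2. Of the 50 genes with the highest FPKM, 26 came from mitochondrial DNA, 17 were shorter than 200 bases and 12 were nuclear and protein-coding. Of the 50 with the most reads, 16 came from mitochondrial DNA, 2 were shorter than 200 bases and 32 were nuclear and protein-coding. The lists shared 26 genes. The 100 most abundant genes held 49.9 ± 1.28% of all FPKM, 20.6% when mitochondrial DNA genes were left out.

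The mitochondrial genome encodes subunits of the respiratory chain and of ATP synthase, and the rRNAs and tRNAs that translate them. Its transcripts took 38.4%, 39.4% and 41.2% of the summed FPKM in replicates 1, 2 and 3, but 8.10%, 8.36% and 9.81% of the recovered reads. The tRNAs made most of that gap, at 19.6 ± 0.588% of FPKM and 0.611 ± 0.00733% of reads. The most abundant entry of all, the tyrosine tRNA MT-TY at 22298, 22705 and 24288 FPKM, rests on 66 bases. The mRNAs held 5.81%, 6.01% and 7.43% of reads and the rRNAs 1.69%, 1.73% and 1.77%.

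Among the 13 mitochondrial mRNAs, the ATP synthase subunit MT-ATP8 was at 9898, 10329 and 16761 FPKM and MT-ATP6 at 6285, 6727 and 10379 FPKM. Both had their highest value in replicate 3, and MT-ATP8 overlaps MT-ATP6 over 22.2% of its length. The complex I subunits MT-ND4L and MT-ND4 were at 11786, 12586 and 10213 FPKM and at 8167, 8455 and 10058 FPKM. MT-ND6, the subunit read from the other strand, was at 3442, 3638 and 6550.4 FPKM. The cytochrome oxidase subunits MT-CO1, MT-CO2 and MT-CO3 had means of 8305, 6922 and 4933 FPKM, and MT-CO2 was nearly level at 6839.97, 6972 and 6955 FPKM. Replicate 3 was the highest library for 11 of the 13 mRNAs and replicate 1 the lowest for 11. The large rRNA MT-RNR2 was at 10182 ± 259.6 FPKM and the small rRNA MT-RNR1 at 1513 ± 48.9 FPKM.

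Of 11 listed noncoding RNAs of at least 10 FPKM, 4 were highest in replicate 3, 6 in replicate 2 and 1 in replicate 1. RN7SL1, the RNA of the signal recognition particle, was at 101, 64.2 and 223 FPKM, the less abundant RN7SK, which holds back the elongation factor P-TEFb, at 6.03, 4.16 and 15.03 FPKM, and the nuclear RNA MALAT1 at 37.7, 39.5 and 67.6 FPKM. NEAT1, the RNA of paraspeckles, was at 31.6, 39.2 and 36.4 FPKM and was not highest in replicate 3. The part of RNA selection or quality in these values was not tested. RN7SL1 and RN7SK are not polyadenylated, and many near-identical copies of both exist in the genome, so their levels are uncertain.

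**Figure D3:**
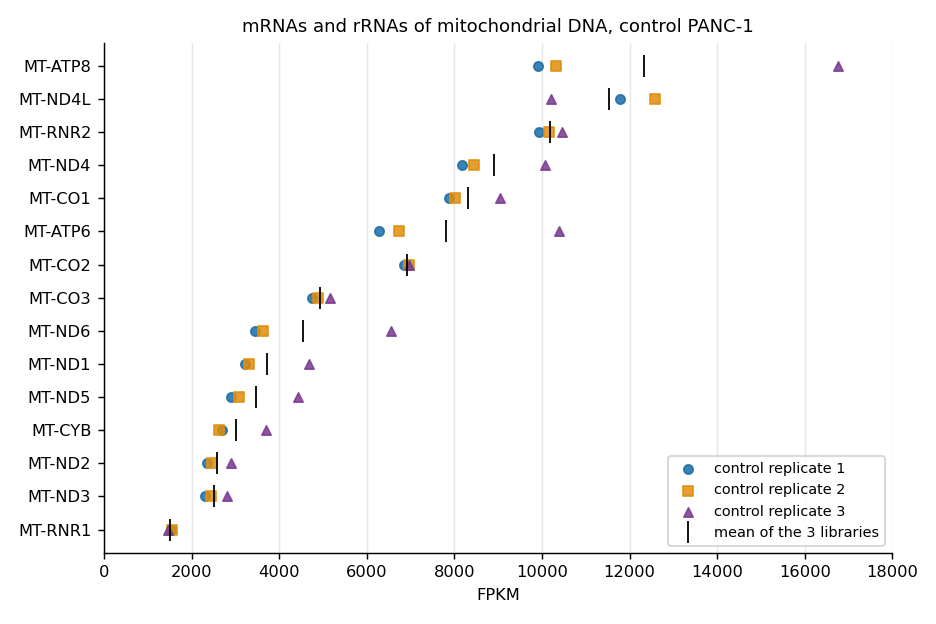
The x axis gives FPKM and each line 1 mRNA or rRNA of mitochondrial DNA, with 1 point per control library and a bar at the mean. Replicate 3 (triangles) lies to the right for MT-ATP8, MT-ATP6, MT-ND6, MT-ND1 and MT-ND5, and the libraries coincide for MT-CO2 and MT-RNR1.

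The most abundant keratins were those of simple epithelia. KRT8 was at 512, 488 and 485 FPKM and its partner KRT18 at 473, 457 and 448 FPKM, and KRT19, the keratin of ducts, at 149.6, 143 and 149.6 FPKM. The libraries stayed within a few percent of one another for each of the 3. KRT80 followed at 34.5 ± 1.89 FPKM and KRT7, usual in ductal carcinoma, at only 6.38 ± 0.738 FPKM. The basal keratins KRT5, KRT14 and KRT17 had 0, 0 and 1, 0, 0 and 1 and 1, 3 and 1 reads in replicates 1, 2 and 3, and the intestinal keratin KRT20 had none. KRT15, another basal keratin, was at 2.84 ± 0.0955 FPKM, and the hair keratins KRT81 and KRT86 were at 4.84 and 1.16 FPKM. In all, 9 of the 17 keratins with a value were detected and 8 were low. Some KRT8 and KRT18 exons overlap on opposite strands. In these bulk libraries, here and below, a low level in all cells and a high level in a few cannot be told apart.

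Markers of the normal duct were mostly below 1 FPKM. Of 24 with a value, 6 were detected, 8 lay between 0.1 and 1 FPKM and 10 were low, with a median of 0.186 FPKM against 2.80 over all nuclear protein-coding genes. SOX9, which keeps duct identity, was at 60.3, 59.6 and 53.9 FPKM. The membrane mucin MUC1 was at 2.31, 2.39 and 2.18 FPKM. CFTR, the chloride channel of ducts, had 0 reads in all 3 libraries, which allows up to 0.0176 FPKM. The bicarbonate carrier SLC4A4 had 0, 4 and 1 reads, and the mucins MUC5AC and MUC4 0, 3 and 3 and 0, 0 and 3, in replicates 1, 2 and 3. Of the labelled cell type, then, the keratins and SOX9 were detected, and the ion transport genes and the mucins MUC5AC and MUC4 were at or near 0.

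Acinar and endocrine genes were mostly low. Of 16 acinar markers with a value, 1 was detected, the trypsinogen PRSS3 at 1.07 ± 0.0334 FPKM, and 12 were low. The carboxypeptidase CPA1 and the trypsin inhibitor SPINK1 had 0 reads in every library, which allows up to 0.0564 and 0.111 FPKM. Of 22 endocrine markers, 2 were detected, the neuronal enolase ENO2 at 8.26 ± 0.478 FPKM and the vesicle protein SYP at 1.98 ± 0.162 FPKM. The remaining 11 acinar and 10 endocrine genes of the lists had no deposited value and are not analysed here. Only genes above 0 in at least 1 of the 9 libraries have a value, so shares detected over the whole lists may be lower.

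Transcription factors of endoderm and pancreas were detected in part. Of 31 with a value, 12 were detected (38.7%, against the 63.5% above) and 9 were low. FOXA2, a pioneer factor of endoderm, was at 17.3, 17.5 and 20.4 FPKM, and KLF4, an epithelial Kruppel-like factor, at 16.2, 16.9 and 15.6 FPKM. OVOL2, a repressor of mesenchymal genes, was at 7 FPKM, ONECUT3 at 5.78, HHEX at 5.04, GATA6 at 4.58 and GATA4 at 3.08 FPKM. PDX1, needed to form the pancreas, was at 0.148, 0.222 and 0.185 FPKM. HNF4A had 2, 0 and 3 reads in the 3 libraries, and GRHL2, a keeper of epithelial identity, had none, which allows up to 0.0272 FPKM.

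The subtype lists gave no single label. Of 20 classical genes with a value, 2 were detected (10%) and 10 were low. GATA6, detected among the endoderm factors above, is not in this classical list, so it enters none of these figures. AGR2, an endoplasmic reticulum protein of mucous glands, was at 28.6, 27.9 and 27.4 FPKM and the adhesion molecule CEACAM6 at 1.26, 1.53 and 1.38 FPKM, while TFF1 was at 0.582 FPKM, LYZ at 0.0101 and CEACAM5 at 0.00448 FPKM. Of 17 basal-like genes, 8 were detected (47.1%) and 8 were low. SLC2A1, the glucose carrier GLUT1, was at 10.7, 10.6 and 10.2 FPKM, KRT7 was next, the EGFR ligand AREG was at 4.35 FPKM, S100A2 at 3.35 and KRT15 at 2.84 FPKM. The squamous factor TP63 was at 0.0357 FPKM. The mean log2(FPKM + 1) of the basal-like list exceeded that of the classical list by 0.56, 0.58 and 0.58 in replicates 1, 2 and 3. That sign turned with the choice of members, since over detected members alone the difference was -0.97, with AGR2 as 1 of only 2 classical genes left. AGR2 was the most abundant gene of both lists.

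**Figure D4:**
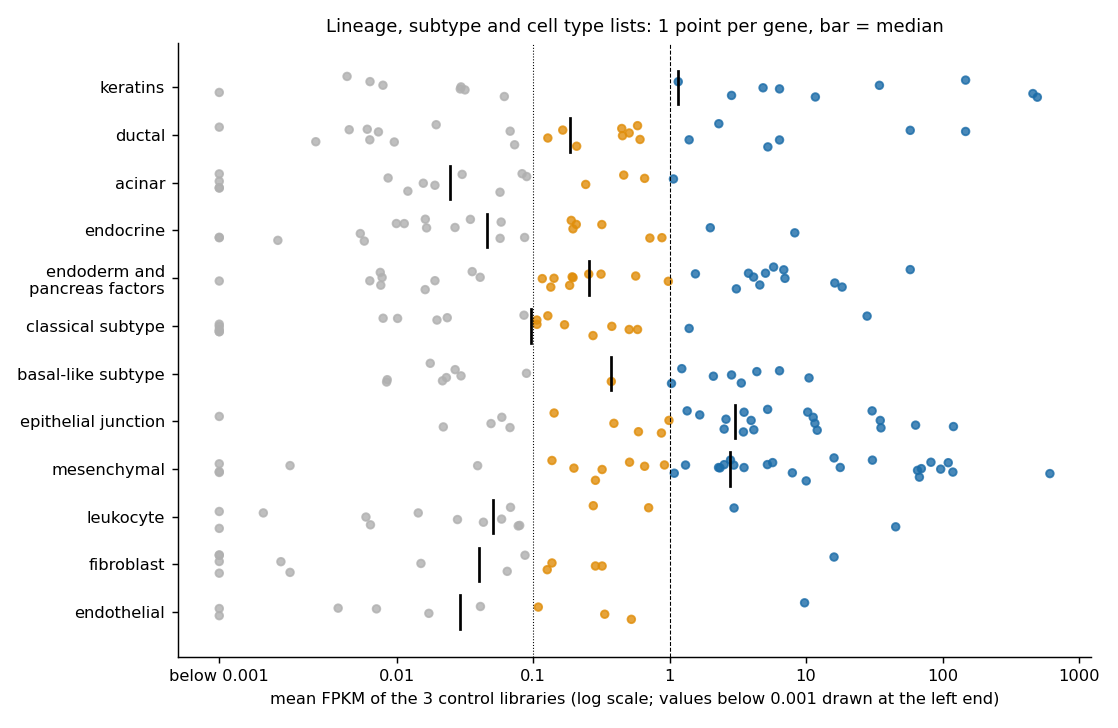
Each point is the mean FPKM of 1 gene over the 3 control libraries on a log axis, each row is a list, and the black bar is the list's median. Blue points are at or above 1 FPKM, grey points below 0.1 FPKM, orange points lie between, and dashed and dotted lines mark these limits; junction and mesenchymal genes spread over the whole range, while the acinar, fibroblast and endothelial lists lie mostly at the left.

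Of 28 epithelial junction genes with a value, 18 (64.3%) were detected and 5 were low, with a median of 3.03 FPKM. These figures lie near the 63.5% and 2.80 FPKM of all nuclear protein-coding genes, so only the single members are described. The serine protease inhibitor SPINT2 was at 123, 116 and 122 FPKM, the claudins CLDN4 and CLDN1 at 65.1, 63.5 and 61.6 and at 36.2, 36.5 and 32.2 FPKM, and the junction plakoglobin JUP at 35.2, 33.8 and 37.1 FPKM. E-cadherin (CDH1), the adhesion molecule of epithelial junctions, was at only 0.533, 0.63 and 0.608 FPKM, and EPCAM at 1.15, 0.841 and 0.97 FPKM. The splicing regulator ESRP1 had 2, 3 and 1 reads, its paralogue ESRP2 was at 3.51 ± 0.243 FPKM, and the small GTPase RAB25 had no reads. CLDN4 and CLDN1 lay far above CDH1 per length in every library, while CLDN7 was at only 2.25, 2.52 and 2.99 FPKM.

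Of 35 mesenchymal genes with a value, 23 (65.7%) were detected and 5 were low, with a median of 2.79 FPKM, again near all nuclear protein-coding genes. Next to vimentin stood the fibronectin receptor chain ITGA5 at 124, 120.4 and 112 FPKM, the calcium-binding S100A4 at 111, 97.9 and 121 FPKM, the hyaluronan receptor CD44 at 98.8, 100.4 and 91.5 FPKM and the receptor kinase AXL at 67.7, 66.2 and 75.8 FPKM. The repressor of CDH1 transcription ZEB1 was at 6.15, 6.08 and 4.82 FPKM, SNAI1 at 7.73, 7.41 and 8.64 FPKM, ZEB2 at 0.532, 0.518 and 0.474 FPKM and N-cadherin (CDH2) at 2.74, 2.35 and 2.43 FPKM. TWIST1 had no reads. Fibronectin (FN1), the ligand of ITGA5 and usually one of the most abundant mesenchymal proteins, was at 0.172, 0.253 and 0.171 FPKM. The chains of type I collagen were unequal, with COL1A1 at 15.97, 15.5 and 16.6 FPKM and COL1A2 at 0, 0 and 1 reads in replicates 1, 2 and 3.

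Promoters are shown for an abundant gene and a pair below 1 FPKM because the CpG content of a promoter is a feature that the levels did not use. The sequences are RefSeq's (GRCh38.p14), from 250 bases before to 50 bases after the annotated start, 5′ to 3′ on the gene's strand, with CpG dinucleotides in capitals. TMSB10 (chr2:84905406-84905705, plus strand) was the second most abundant nuclear mRNA, FN1 (chr2:215436019-215436318, minus strand) was not detected, and SPINK1 (chr5:147831622-147831921, minus strand) had no reads. All 3 genes were found in the table by symbol.
TMSB10: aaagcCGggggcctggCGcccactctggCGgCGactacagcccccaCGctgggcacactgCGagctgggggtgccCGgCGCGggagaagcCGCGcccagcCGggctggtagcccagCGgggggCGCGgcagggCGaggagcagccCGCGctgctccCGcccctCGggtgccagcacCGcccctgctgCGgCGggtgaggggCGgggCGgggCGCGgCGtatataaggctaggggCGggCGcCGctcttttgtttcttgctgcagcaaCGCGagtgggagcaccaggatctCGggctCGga
FN1: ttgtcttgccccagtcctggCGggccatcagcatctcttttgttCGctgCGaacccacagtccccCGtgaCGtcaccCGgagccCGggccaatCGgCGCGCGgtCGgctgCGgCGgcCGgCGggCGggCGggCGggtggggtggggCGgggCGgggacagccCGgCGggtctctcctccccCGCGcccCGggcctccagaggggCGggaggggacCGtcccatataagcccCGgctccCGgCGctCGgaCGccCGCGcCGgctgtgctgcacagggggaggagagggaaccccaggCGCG
SPINK1: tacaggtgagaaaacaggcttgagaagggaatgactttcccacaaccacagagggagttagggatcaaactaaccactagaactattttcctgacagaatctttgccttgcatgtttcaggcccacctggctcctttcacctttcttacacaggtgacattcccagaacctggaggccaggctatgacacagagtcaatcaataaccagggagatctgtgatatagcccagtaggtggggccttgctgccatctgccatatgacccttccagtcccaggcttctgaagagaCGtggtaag
The windows hold 35, 38 and 1 CpG, against a median of 14 over the 35116 promoters of the table. Fewer CpG than in FN1 were held by 90.1% of these promoters, and fewer than in SPINK1 by 3.96%. The letters TATAA stand on the gene's strand within the 50 bases before the start in TMSB10 and FN1 and not in SPINK1, and 4.74% of all promoters hold them there. On the other strand none of the 3 holds them, against 2.63% of all promoters. TMSB10 and FN1 thus had promoters alike in both features. Methylation and factor binding were not measured, and a match of letters is not a binding site.

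Receptor tyrosine kinases, which pass growth factor signals into the cell, had 22 of 54 detected (40.7%) and 15 low. Of all nuclear protein-coding genes, 63.5% were detected. EPHA2, a receptor for ephrin A ligands, was at 171, 166 and 179 FPKM and led the list in every library. EGFR was at 74.8, 76.01 and 64.6 FPKM, AXL close to it, and the hepatocyte growth factor receptor MET at 24.1, 25.1 and 22.3 FPKM. ERBB2 was at 3.46, 3.28 and 3.45 FPKM, ERBB3 at 0.385, 0.295 and 0.297 FPKM and ERBB4 had no reads, which allows up to 0.0127 FPKM. The insulin receptor INSR was at 0.213, 0.295 and 0.218 FPKM, while the related IGF1R was at 6.57, 7.16 and 6.31 FPKM. PDGFRA and ROS1 had no reads. Among ligands of EGFR, EREG was at 12.3, 13.2 and 8.34 FPKM, HBEGF at 10.8, 10.6 and 10.6 FPKM, AREG at 4.18, 4.5 and 4.37 FPKM and TGFA at 0.972, 0.928 and 0.719 FPKM. The MET ligand HGF had 2, 6 and 2 reads.

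Nuclear receptors, transcription factors switched by lipids and hormones, had 23 of 46 detected (50%, against the 63.5% above) and 18 low. The orphan receptors NR2F6, ESRRA and NR2F2 were at 36.2, 33.8 and 36.9, at 19.9, 17.8 and 21.3 and at 10.5, 11.4 and 11.5 FPKM, and the glucocorticoid receptor NR3C1 at 8.68, 9.58 and 8.19 FPKM. The receptor for oestrogen (ESR1) had 6, 1 and 4 reads in the 3 libraries, and that for progesterone (PGR) none. Overlapping neighbours share exons with ESRRA (9.37% of its length) and NR2F6 (8.26%).

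Cytokine and TGF-beta receptors had 41 of 65 detected (63.1%) and 14 low. That share lies near the 63.5% of all nuclear protein-coding genes, so only single members are described. The signalling chain shared by the interleukin 6 family, IL6ST, was at 81.5, 80.8 and 62.7 FPKM, IL6R at 4.25, 4.35 and 4.77 FPKM, OSMR at 30.5, 30.1 and 25.7 FPKM and LIFR at 16, 15.6 and 12.9 FPKM. LIF, which binds LIFR with IL6ST, was at 29.5, 31.7 and 29.7 FPKM, whereas IL6 itself had 1, 0 and 1 reads. The TWEAK receptor TNFRSF12A was at 61.96, 60.7 and 62.1 FPKM and the interleukin 13 receptor chain IL13RA1 at 57.97, 55.9 and 55.5 FPKM. TGFBR2 was at 28.6, 28.4 and 25.6 FPKM with its ligands TGFB1 at 28.6, 29.1 and 28.5 and TGFB2 at 18.4, 18.3 and 15.1 FPKM. Replicate 3 was the lowest for IL6ST, OSMR, LIFR and TGFBR2 and the highest for IL6R and TNFRSF12A.

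G protein-coupled receptors had 37 of 86 detected (43%, against the 63.5% above) and 37 low. F2RL1, a receptor switched by trypsin-like proteases, was at 100.3, 98.6 and 88.9 FPKM, and the related thrombin receptor F2R at 25.5, 27.4 and 23.8 FPKM. GPRC5A, an orphan receptor induced by retinoic acid, was at 76.03, 75.7 and 74.9 FPKM. The neurotensin receptor NTSR1 was at 50.1, 48.3 and 46.4 FPKM, and the gene of its ligand, NTS, had 0, 0 and 1 reads. The adenosine receptor ADORA2B was at 37.2, 34.8 and 34.5 FPKM. CXCR4 had 3, 1 and 2 reads and its ligand CXCL12 1, 0 and 1.

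Adhesion molecules and integrins had 20 of 36 detected (55.6%, against the 63.5% above). After ICAM1 came ITGA3, a receptor chain for laminins, at 127, 125 and 124 FPKM, then ITGA5 (above), the tetraspanins CD151 and CD63 at 111 and 111, ITGA2 at 106 and ITGB5 at 101 FPKM. ITGB6, an epithelial chain of activators of latent TGF-beta, had 6, 5 and 3 reads. The basement membrane collagen COL18A1 was at 107, 104 and 97.05 FPKM. Of the 90 matrix proteins, proteases and inhibitors, 56 were detected (62.2%, near the 63.5%), among them the lysosomal protease CTSD at 153 FPKM. The urokinase receptor PLAUR was at 7.73, 7.74 and 7.97 FPKM, the collagenases MMP1 and MMP14 at 2.72 and 1.31 FPKM, and the tissue activator PLAT at 0.335 FPKM.

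Secreted growth factors and hormones had 42 of 77 detected (54.5%, against the 63.5% above). The stress-induced cytokine GDF15 was at 258, 247 and 220.03 FPKM and the matricellular YAP targets CCN1 and CCN2 at 195, 191 and 176 and at 115, 113 and 101 FPKM. The lipase inhibitor ANGPTL4 was at 121, 114 and 109 FPKM and the stanniocalcin STC2 at 112, 113 and 117 FPKM. Replicate 3 was the lowest for GDF15, CCN1, CCN2 and ANGPTL4 and the highest for STC2. Of 50 cytokines and chemokines, 22 were detected (44%). The monocyte attractant CCL2 was at 81.4, 81.4 and 61.7 FPKM, the macrophage growth factor CSF1 at 63.1, 61.7 and 63.7 FPKM, and the neutrophil attractants CXCL1 and CXCL8 at 20.5, 19.8 and 16.6 and at 16.9, 16.2 and 13.9 FPKM.

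Of 50 listed genes that drive pancreatic cancer, 44 were detected (88%) and 2 were low. Among all nuclear protein-coding genes 63.5% were detected. Cyclin D1 (CCND1) was at 214, 213 and 187 FPKM, the kinase AKT2, whose gene is known to be amplified in this line, at 96.7, 97.9 and 97.9 FPKM, and SMAD3 at 58.9 FPKM. MYC was at 19.1, 17.2 and 19.6 FPKM and SMAD4 at 3.68, 3.5 and 2.84 FPKM, with SMAD4 lowest in replicate 3. Cell cycle genes had 33 of 35 detected (94.3%), and the only low one was CDKN2A. The mitotic cyclin CCNB1 was at 56.1, 56.1 and 64.2 FPKM and PCNA at 51.1, 47.9 and 46.9 FPKM. The inhibitor CDKN1A (p21) was at 131, 127 and 135 FPKM.

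CDKN2A on 9p21 encodes the tumour suppressors p16INK4a and p14ARF, and PANC-1 is catalogued with a deletion of it on both copies. Its exons (chr9:21967753-21995301, GRCh38) held 0, 0 and 1 reads in replicates 1, 2 and 3, where 0 reads allow up to 0.0424 FPKM. The antisense CDKN2B-AS1 (chr9:21994778-22121097) likewise held 0, 0 and 1 reads. Toward the telomere, the methionine salvage enzyme MTAP (chr9:21802543-21937651) was at 0.847, 0.855 and 0.638 FPKM, from 224, 237 and 173 reads. FPKM divides by length, and IFNE, with a higher mean FPKM (below), rests on only 37, 40 and 20 reads. MTAP was thus not detected by the minimum of 1 FPKM, but it was not without reads. ENSG00000264545 (chr9:21802636-22032986), a gene that starts within MTAP and runs past CDKN2A on the opposite strand, was at 19.6, 19.6 and 14.6 FPKM, and which of its exons held reads is not given by the values. Farther out, KLHL9, a ubiquitin ligase adaptor, was at 5.89, 5.78 and 5.28 FPKM, the host RNA of miR-31 (MIR31HG) at 5.79, 5.57 and 5.38 FPKM and FOCAD at 4.75, 4.64 and 4.2 FPKM, while MLLT3 was at 0.279, 0.292 and 0.398 FPKM and HACD4 at 0.072, 0.114 and 0.0994 FPKM. On the centromeric side DMRTA1 was at 0.433, 0.601 and 0.384 FPKM, CAAP1 at 4.22, 4.03 and 3.46 and PLAA at 5.61, 6.08 and 5.04 FPKM, and the neuronal gene ELAVL2 between DMRTA1 and CAAP1 had no reads. The listed type I interferon genes of the region had no reads, except IFNA1 with 1, 1 and 0 reads and the epithelial interferon IFNE at 1.38, 1.42 and 0.726 FPKM. Of the 31 genes chosen for the region, 12 had no deposited value and are not described. DNA was not measured, and reads alone do not tell a lost gene from a silent one. Over chromosome 9 as a whole, 63.7% of 702 nuclear protein-coding genes were detected, near the 63.5% of all chromosomes.

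**Figure D5:**
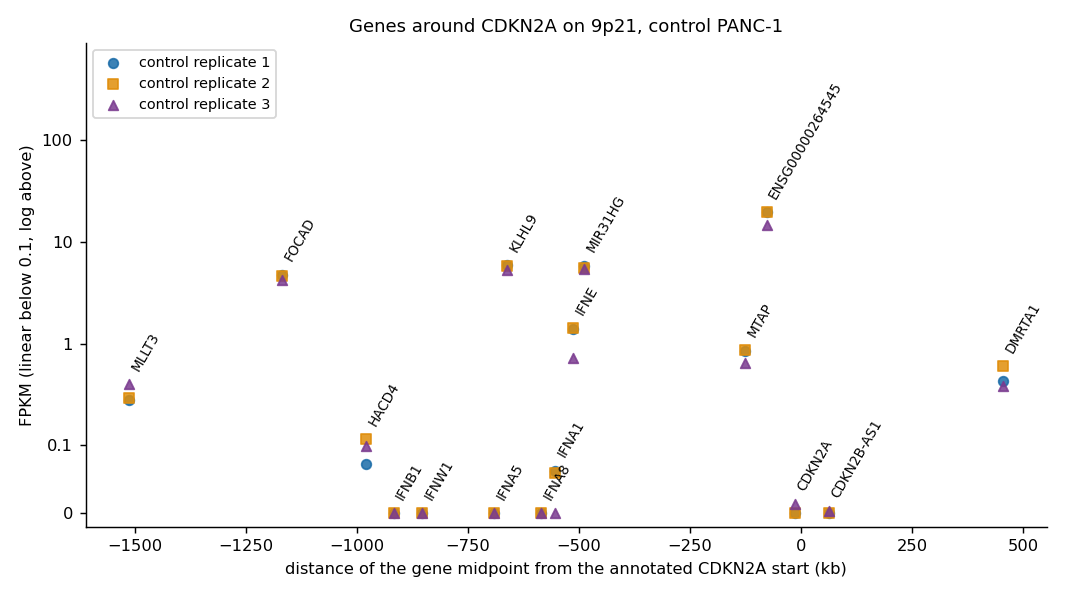
The x axis gives the distance in kilobases of each gene's midpoint from the annotated CDKN2A start (negative toward the telomere of the short arm), the y axis FPKM, linear below 0.1 and logarithmic above, with 1 point per control library. CDKN2A and CDKN2B-AS1 lie at 0 to 1 read per library. MTAP on one side lies at 0.638 to 0.855 FPKM (173 to 237 reads), and DMRTA1 on the other at 0.384 to 0.601 FPKM (40 to 64 reads).

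RefSeq promoter windows of 2 CDKN2A starts, at chr9:21974808-21975107 and, for the p14ARF transcript, at chr9:21995275-21995574 (both minus strand), are shown because almost no read came from the gene they precede. CpG are again in capitals.
CDKN2A proximal start: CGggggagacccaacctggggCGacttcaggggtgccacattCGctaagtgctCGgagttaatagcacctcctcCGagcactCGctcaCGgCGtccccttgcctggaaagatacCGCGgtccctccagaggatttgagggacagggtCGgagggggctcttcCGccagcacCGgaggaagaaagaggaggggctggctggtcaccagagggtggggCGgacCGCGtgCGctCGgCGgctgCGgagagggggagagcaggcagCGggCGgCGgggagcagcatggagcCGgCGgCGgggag
CDKN2A distal start: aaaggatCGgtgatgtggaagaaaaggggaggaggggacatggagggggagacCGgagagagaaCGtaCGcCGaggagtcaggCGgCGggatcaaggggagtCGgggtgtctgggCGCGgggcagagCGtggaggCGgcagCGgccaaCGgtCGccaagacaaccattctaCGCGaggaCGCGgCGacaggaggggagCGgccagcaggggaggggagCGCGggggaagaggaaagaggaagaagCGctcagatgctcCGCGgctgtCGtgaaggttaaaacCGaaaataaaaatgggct
They hold 26 and 28 CpG, more than 69.9% and 73.8% of all promoters in the table. TATAA is absent on both strands from the 50 bases before either start.

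Of 24 genes of the class I antigen presentation pathway, 17 (70.8%) were detected and 1 was low, with a median of 7.99 FPKM against 2.80 over all nuclear protein-coding genes. The light chain B2M was at 27.04, 28.2 and 25.3 FPKM, HLA-E at 26.6, 27.6 and 25.4 FPKM and HLA-B at 13.3, 13.7 and 13.1 FPKM. HLA-C was at 0.394, 0.544 and 0.727 FPKM, but the class I genes are near-identical and polymorphic, and no source used here says how reads with several matches were treated. The peptide pump TAP1 was at 20.7 FPKM, and NLRC5, the activator of class I genes, at 0.27 FPKM. Of 10 class II genes, 2 were detected, with CD74 at 2.18 FPKM. The count is 1 without replicate 1, since HLA-DMA stood at 1.31, 0.832 and 1.15 FPKM. Sensors of foreign nucleic acid had 13 of 20 detected (65%, near the 63.5% of all nuclear protein-coding genes). CGAS, which senses DNA in the cytosol, was at 11.9, 11.2 and 10.4 FPKM, the RNA sensors RIGI and IFIH1 at 12.3, 12.9 and 11.4 and at 10.7, 10.7 and 8.83 FPKM, and the adaptor STING1 at 1.35, 1.42 and 0.458 FPKM, with replicate 3 well below the others.

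Glucose metabolism genes had 24 of 34 detected (70.6%), and detoxifying enzymes and transporters 24 of 42 (57.1%), against the 63.5% above. The lactate dehydrogenase LDHB was at 146, 147 and 167 FPKM and LDHA at 12.9, 13.9 and 11.7 FPKM. LDHA has processed copies that could take its reads, so that ratio is uncertain. ENO3, the muscle enolase, was listed at 165 FPKM and overlaps the far more abundant PFN1. Peroxiredoxin PRDX1 was at 217, 208 and 257 FPKM, glutathione transferase GSTP1 at 100.01, 98.2 and 101 FPKM and the quinone reductase NQO1 at 62.4, 59.9 and 56.2 FPKM. For handling of gemcitabine, a drug given in pancreatic cancer, the carrier SLC29A1 was at 69.9, 70.4 and 81.8 FPKM, the activating kinase DCK at 7.31, 7.65 and 6.04 FPKM and the deaminase CDA at 2.75, 2.88 and 3.4 FPKM. The efflux pump ABCG2 was at 5.46, 5.05 and 4.88 FPKM and ABCB1 had 4, 10 and 5 reads.

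Markers of cells other than carcinoma cells served as a check of the culture. Markers without a value are left out of the counts, among them 7 of 13 erythroid and hepatocyte and 4 of 20 leukocyte markers. Of 16 leukocyte markers 2 were detected, of 14 fibroblast markers 1, of 10 endothelial markers 1, of 13 neuronal and muscle markers 2, and of 6 erythroid and hepatocyte markers none. The defining genes were at or near 0, with 2, 0 and 1 reads of PTPRC (CD45) in leukocytes, 3, 0 and 0 of PECAM1 and 4, 5 and 1 of VWF in endothelium, and 1, 0 and 0 of decorin (DCN) in fibroblasts. The members detected were CD68 at 45.3 FPKM, which shares 81.7% of its exons with ENSG00000264772, CD14 at 2.96, COL1A1, ESAM at 9.75, L1CAM at 12.95 and TUBB3 at 8.6 FPKM. At the other extreme, all 23 housekeeping genes and all 68 genes of core complexes were detected, the lowest of the latter being the proteasome subunit PSMB3 at 4.69 FPKM. Cancer-testis genes are normally confined mostly to germ cells, but the list used also held LIN28B, a gene of embryonic and fetal cells. Of 31 genes of this list with a value, 4 were detected, and 10 more genes of the list had no value. The detected ones were DDX43 at 11.1, LIN28B at 3.15, MAGEA3 at 1.44 and PRAME at 2.12, 1.06 and 1.01 FPKM. PRAME was highest in replicate 1.

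Of the 4140 genes of at least 10 FPKM, 46 had a CV over 20% and 137 a CV under 1%. The narrowest was SSR2, a subunit of the translocon-associated complex, with 26.2, 26.2 and 26.2 FPKM. Counting alone gave a median CV of 2.43%, so values this close are an extreme of 4140 genes and no evidence of a steady gene. Replicate 3 was the highest library for 39.2% of the 4140 genes and the lowest for 46.4%.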

How the data were processed

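RNA was measured in 3 control libraries of PANC-1 cells. The deposited values, whose unit was inferred here to be FPKM, were made by the authors, 1 file per library with no pooling. Trimmomatic, HISAT2, Cufflinks, HTSeq and the hg38 build are named in the submitters' processing notes, and no source used here gives versions, roles, annotation or the strand of counting. The files list only genes above 0 in at least 1 of the 9 libraries, so a gene without a row was not analysed here.

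Low FPKM values are whole multiples of a step set by gene length and depth. Whole reads were recovered on these steps (tolerance 0.01 of a read) for 32255 of 32256 genes, with the exon length of GENCODE release 29 for 56.8% and another whole length for 43.2%. The reads gave depth, limits and counting error, and no count model was run, since no groups are compared. Intervals and limits cover counting error only. Names came from a table that held 36659 of 36753 identifiers, and coordinates from GENCODE, which held 35564. Exon overlaps were computed with bedtools 2.31.1, and the rest with Python 3.11.15, pandas 2.3.3 and numpy 2.4.6. Log values use log2(FPKM + 1).

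Named genes were the 20 highest nuclear protein-coding genes, the 5 highest noncoding genes, genes of mitochondrial DNA, up to 8 of the highest detected and 8 of the lowest low members of each list, the 10 widest and 10 narrowest of at least 10 FPKM, the 9p21 genes and the 5 longest silent runs. Members named outside this rule, among them all those between 0.1 and 1 FPKM, were chosen after their values were seen. A few genes that fall under it are not reported here. The lists and the choice of the control libraries were made with earlier results of these data known. Alternatives were other minimums, pseudocounts and scalings, leaving out each replicate, and shares of reads in place of FPKM.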

Additional observations from a re-analysis of the deposited data

How the results depend on the processing

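The share of all FPKM held by the 100 most abundant genes was 49.9%, 20.6% without mitochondrial DNA genes, 20.5% over protein-coding genes alone, and 49.1 to 50.4% with each replicate left out in turn. The mitochondrial DNA share of 39.7% of FPKM was 8.76% of recovered reads, 38.1% without its rRNA genes, 25% without its tRNA genes (chosen after seeing the data), and 38.9 to 40.3% with a replicate left out. The 11139 detected genes became 6849 at a minimum of 5 FPKM, and 11113 to 11167 with a replicate left out. The median CV was 8.78% with no minimum. With a replicate left out, and so over fewer libraries, it was 2.22 to 5.47%, the lowest without replicate 3. The mean Pearson r of 0.997 was 0.996 with a pseudocount of 0.1, 0.994 over genes of at least 1 FPKM and 0.991 over those of at least 10 FPKM (the last chosen after seeing the data). The basal-like minus classical difference of 0.57 was 1.24 with a pseudocount of 0.1, -0.97 over detected members, and, chosen after seeing the data, 0.32 with unlisted members counted as 0 and 0.81 without AGR2. It was 0.57 to 0.58 with a replicate left out. Apart from the alternatives' own construction, the cause was not tested. The counts of detected members stayed within 1.5 times for 119 of 120 combinations of a list and a replicate left out, the exception being the class II list without replicate 1. A minimum of 0.1 FPKM moved 14 of 40 lists further than that, and one of 5 FPKM moved 19. No paired analysis was possible because no groups are compared. Depth limits low genes: at 3 reads, a gene of 1 kilobase cannot be told from 0 below about 0.165 FPKM in the shallowest library.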

Other observations

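Low genes lay in runs along the chromosomes. The longest runs of neighbouring nuclear protein-coding genes below 0.1 FPKM in all 3 libraries held 10 genes each. One on chromosome 11 (59852800 to 60801305, GRCh38) held the membrane-spanning MS4A genes of leukocytes and the OOSP genes of oocytes, with 4 reads in all, and one on chromosome 19 (42580241 to 43207299) held CEACAM8 and the placental PSG genes, with 26 reads. The next were 9 genes on chromosome 19 (50819148 to 51065114), 8 of them kallikrein proteases (KLK), with 13 reads, and 9 on chromosome 4 (69051363 to 70686816), with UGT2B7, UGT2B28 and the enamel genes AMBN and ENAM, with 2 reads. A run of 8 on chromosome 2 (233617645 to 233833423) held 7 UGT1A glucuronosyltransferases, with 5 reads. The UGT1A genes share their last exons, so their values are uncertain. Runs were built from listed genes only.

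Chromosomes differed in the share of their listed nuclear protein-coding genes that were detected. It was lowest on X at 53.4% of 657 genes and on chromosome 4 at 56.2% of 625, and highest on chromosome 20 at 69.3% of 473. Copy number was not measured.

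Of the 83 ribosomal protein genes and their relatives, a list added after seeing the data, 82 were detected, with a median of 94.5 FPKM. The exception was the muscle form RPL3L at 0.0647 FPKM. Of 38 long noncoding RNAs, 34 had a value and 26 were detected. H19, the imprinted RNA beside IGF2, was at 2.45, 4.14 and 1.83 FPKM in replicates 1, 2 and 3.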
